A study of Mus musculus with 6 samples.

Results

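Whole-lung messenger RNA of 6 mice was searched for 39 genes of heart muscle, which encode the contractile filaments of the sarcomere, the proteins that store and release calcium in the sarcoplasmic reticulum, and a few energy, hormone and regulatory genes of cardiomyocytes. The 39 genes were chosen by a list of symbols that was written with the levels of these same 6 libraries in view. Which values chose each gene is not recorded in the sources used here, so their levels and their difference between groups are given as a description. All 39 were found by symbol among the 25965 genes of the deposited table, and 38 of them passed the filter on low values. Myl2 did not pass.

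In mice the sleeve of muscle around the pulmonary veins is made of heart muscle cells that run from the left atrium into the lung. Whole mouse lung therefore normally contains transcripts of atrial type. In such a cell calcium enters through surface channels, opens the ryanodine receptor and is released from stores held by calsequestrin. It then binds troponin on the thin filament and is pumped back by a calcium ATPase that phospholamban and sarcolipin restrain.

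All 6 mice were chimeras of the genotype ZBTB46 DTR, in which toxin injection is meant to deplete classical dendritic cells, which express the transcription factor Zbtb46. Endothelium is known to transcribe Zbtb46 too. All breathed 10% oxygen for 7 days. The 3 mice of the DT group received 3 doses of diphtheria toxin, the first of 40 ng/g on the day before hypoxia (1 day) and later ones of 8 ng/g at intervals of 3 days. The 3 mice of the PBS group received phosphate-buffered saline. The sources used here give neither the donor and host of the chimeras nor age or sex. No toxin-treated mice without the receptor are among these samples, so loss of dendritic cells and toxin itself cannot be told apart. The labels do not describe how lungs were perfused or trimmed, or how much vein or atrium stayed with each.

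Libraries held between 16766386 and 19084657 reads, as recovered from the deposited values. DT mouse 1 had the fewest, and DT mouse 3 had 18385833. Lung markers were present in every library, with the surfactant gene Sftpa1 between 124 and 140 RPM (reads of a gene per 1000000 reads of the library). The summed level of 10 lung markers ran from 97.5% to 113% of the PBS mean. Sftpc, the surfactant gene of alveolar type 2 cells, which was picked after its values were seen, stood at only 8.12 to 9.30 RPM. How duplicate reads were treated is not stated in these sources, and its part in the values was not tested.

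The heart muscle genes split the 3 toxin-treated mice. DT mice 1 and 3 were low and DT mouse 2 lay at the level of the PBS mice. The summed level of all 39 genes was 1439, 1481 and 1705 RPM in PBS mice 1 to 3. In DT mice 1 to 3 it was 857, 1777 and 895 RPM. The group means were 1542 ± 143 RPM in PBS and 1177 ± 521 in DT (SD, n = 3). DT mouse 2 held the highest sum of the 6 libraries, so the groups overlapped. The median tested member stood at 36.0% of its PBS mean in DT mouse 1, 105% in DT mouse 2 and 44.1% in DT mouse 3. In bulk tissue, fewer heart muscle cells and less RNA per cell cannot be told apart.

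DT mice 1 and 3 were the 2 lowest of the 6 libraries for 34 of the 38 tested members, a pattern chosen after the values were seen. Over all 16708 genes tested, 6.95% showed it. The 4 members without it were Actc1, Nebl, Jph2 and Myh7. DT mouse 1 lay below 50% of the PBS mean for 22 of the 38 members and DT mouse 3 for 22. DT mouse 2 lay within 25% of the PBS mean for 32. The median SD of the log2 values was 0.13 among PBS mice and 0.78 among DT mice for the members, against 0.10 and 0.08 over all genes tested.

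**Figure D1:**
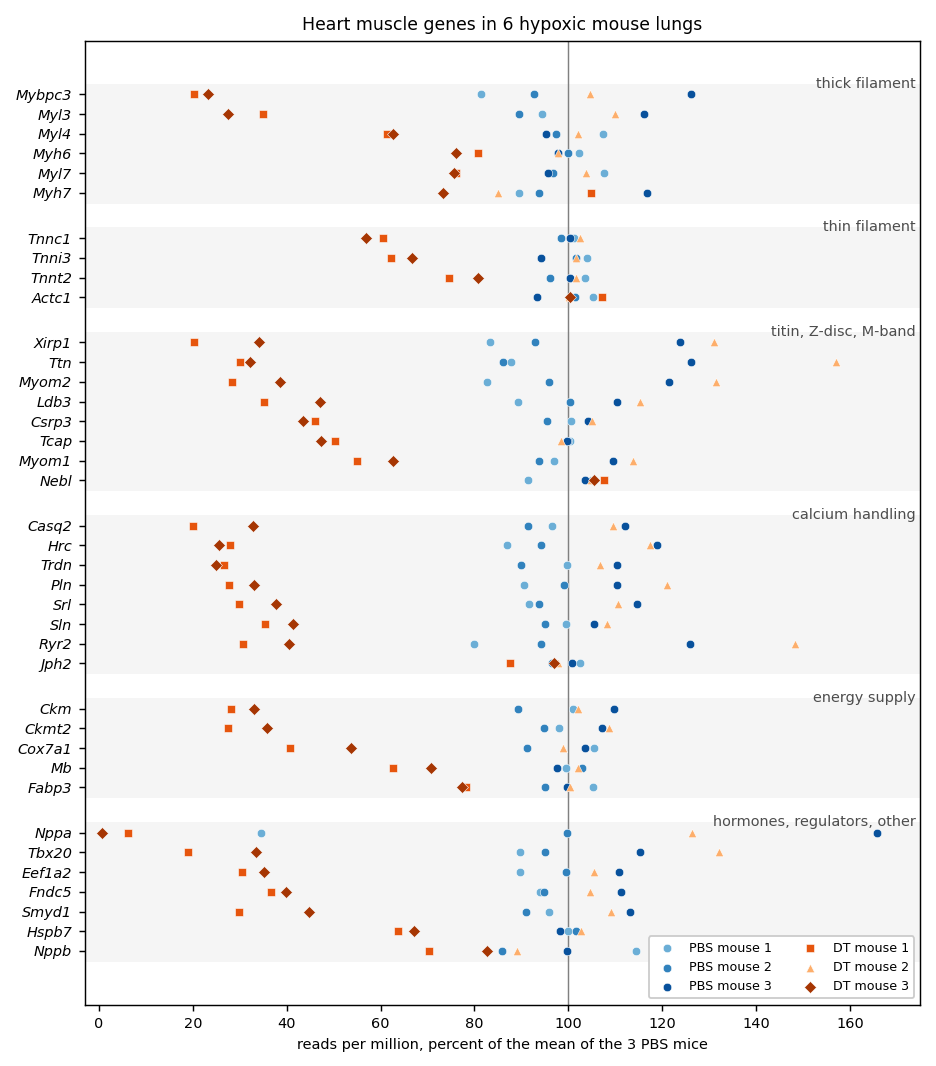
Level of each of the 38 tested heart muscle genes in each of the 6 mice, as a percentage of the mean of the 3 PBS mice (x axis), grouped by role. Points are single mice, and for most genes DT mice 1 and 3 sit far to the left while DT mouse 2 sits among the PBS mice.

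Promoters of the members were read from RefSeq on GRCm38.p6, where 33 of the 39 had an entry, as the 250 bases before and the first 50 after the start nearest the deposited gene. Sequences are shown for 4 members that had the lowest log2 fold change of their role among members with an entry and for Actc1, the member with an entry whose log2 fold change was nearest 0. They let a member that was low in DT mice 1 and 3 be read beside one that was not. Capitals mark matches on either strand to TATAAA (the TATA box), CATTCC (the MCAT motif of TEAD factors), AGATAA (bound by GATA factors), CTAAAAATA (a form of the MEF2 motif) or the CArG box of serum response factor. No 2 of the printed matches overlap.
Nppa, chr4:148000472-148000771, plus strand: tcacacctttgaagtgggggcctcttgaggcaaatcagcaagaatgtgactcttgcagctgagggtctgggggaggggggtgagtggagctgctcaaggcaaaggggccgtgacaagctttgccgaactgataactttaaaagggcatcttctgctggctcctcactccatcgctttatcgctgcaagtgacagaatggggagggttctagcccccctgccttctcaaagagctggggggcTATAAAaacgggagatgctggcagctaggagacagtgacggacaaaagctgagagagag
Casq2, chr3:102086165-102086464, plus strand: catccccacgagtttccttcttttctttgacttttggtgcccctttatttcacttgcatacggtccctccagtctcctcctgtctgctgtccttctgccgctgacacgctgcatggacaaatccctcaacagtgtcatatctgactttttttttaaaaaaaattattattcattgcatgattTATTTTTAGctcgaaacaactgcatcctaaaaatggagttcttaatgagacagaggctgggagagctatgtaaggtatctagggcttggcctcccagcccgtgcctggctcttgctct
Tnnc1, chr14:31208062-31208361, plus strand: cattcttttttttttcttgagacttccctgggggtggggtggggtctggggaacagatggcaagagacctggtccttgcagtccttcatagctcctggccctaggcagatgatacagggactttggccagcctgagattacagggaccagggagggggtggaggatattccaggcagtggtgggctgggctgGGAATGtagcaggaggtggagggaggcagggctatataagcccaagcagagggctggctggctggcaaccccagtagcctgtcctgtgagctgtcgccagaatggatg
Ttn, chr2:76982498-76982797, minus strand: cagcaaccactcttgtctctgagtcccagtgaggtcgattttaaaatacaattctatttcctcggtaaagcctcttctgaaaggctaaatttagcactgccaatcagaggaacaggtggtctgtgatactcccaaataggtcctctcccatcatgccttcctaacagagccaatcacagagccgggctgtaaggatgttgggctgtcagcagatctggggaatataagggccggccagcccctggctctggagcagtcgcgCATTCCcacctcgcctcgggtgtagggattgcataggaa
Actc1, chr2:114052826-114053125, minus strand: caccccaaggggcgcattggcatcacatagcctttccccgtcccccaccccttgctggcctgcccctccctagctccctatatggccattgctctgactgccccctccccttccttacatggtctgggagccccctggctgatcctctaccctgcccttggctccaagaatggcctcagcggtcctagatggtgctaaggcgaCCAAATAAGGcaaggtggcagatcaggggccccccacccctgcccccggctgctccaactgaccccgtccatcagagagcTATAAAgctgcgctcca

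The Casq2 window held a MEF2 match 68 to 60 bases before the start, and Tnnc1 an MCAT match 58 to 53 bases before it. Actc1 held a CArG box 47 to 38 bases before the start and TATAAA 33 to 38 bases after it. The deposited Actc1 gene, on the minus strand, starts at 114053548, which lies outside its window. The Nppa window held TATAAA 9 to 4 bases before the start and Ttn an MCAT match 11 to 16 bases after it. The windows of Ckm and Mybpc3, which had the lowest fold changes of the energy and thick filament genes, held no match to the 5 motifs as searched. Other spellings of these motifs were not searched for, so such elements may be present. CATTCC was present in 9 of the 33 member windows (27.3%) and in 14.7% of all 32851 promoter windows. A CArG box was found in 5 members (15.2%), namely Actc1, Ldb3, Myl3, Myl7 and Myom1, and in 1.63% of all windows. TATAAA was present in 7 members (21.2%) and 13.6% of all windows, AGATAA in 5 (15.2%) and 11.2%, and the MEF2 form in 1 (3.03%) and 0.517%. Of the 5 members with a CArG box, Actc1 was not low in DT mice 1 and 3 and the other 4 were. These matches are descriptions of the letters in the windows.

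Among the thick filament genes, Mybpc3, which encodes cardiac myosin-binding protein C (ENSMUSG00000002100, mm10 chromosome 2, 91118144 to 91136516), differed most. It stood at 28.8, 32.8 and 44.7 RPM in PBS mice 1 to 3 and at 7.22, 37.1 and 8.27 RPM in DT mice 1 to 3. DT mice 1 and 3 were thus at 20.4% and 23.3% of the PBS mean and DT mouse 2 at 105%. Myl3, the essential light chain of ventricle and slow muscle, was at 9.15, 8.69 and 11.3 RPM in PBS and at 3.40, 10.7 and 2.67 RPM in DT. Its groups overlapped through DT mouse 2.

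The atrial light chains differed less. Myl4, the atrial essential light chain, was at 25.7, 23.3 and 22.8 RPM in PBS and 14.7, 24.5 and 15.01 RPM in DT. Myl7, the atrial regulatory light chain, was at 8.43, 7.57 and 7.49 RPM in PBS and 5.96, 8.12 and 5.93 RPM in DT. Both were lowest in DT mice 1 and 3, at 61.4% and 62.6% of the PBS mean for Myl4 and 76.2% and 75.7% for Myl7. Myh6, the fast cardiac myosin heavy chain of adult mouse heart, was at 121, 119 and 116 RPM in PBS and 95.9, 116 and 90.3 RPM in DT. Myh7, the slow heavy chain, had another order, with 44.3, 46.4 and 57.8 RPM in PBS and 51.9, 42.1 and 36.3 RPM in DT. Antisense genes overlap exons of Myh7, among them Mhrt (5.62% of its exonic bases), and the use of strand in counting was not given.

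Thin filament genes were low in DT mice 1 and 3 except for actin. Tnnc1, the calcium-binding troponin subunit of heart and slow muscle, stood at 13.1, 12.8 and 13.05 RPM in PBS and 7.87, 13.3 and 7.40 RPM in DT. The inhibitory subunit Tnni3 was at 62.3% of its PBS mean in DT mouse 1, 102% in DT mouse 2 and 66.6% in DT mouse 3. The tropomyosin-binding subunit Tnnt2 was at 74.7%, 102% and 80.8%. Actc1, cardiac alpha-actin, was at 31.3, 30.2 and 27.8 RPM in PBS and 31.9, 29.8 and 29.9 RPM in DT, so its highest library was DT mouse 1. The log2 ratio of Actc1 to Tnnc1 per kilobase was 0.62, 0.60 and 0.45 in PBS mice and 1.38, 0.52 and 1.38 in DT mice.

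Titin and the proteins of the Z-disc and M-band followed the split in 7 of 8 cases. Ttn, which encodes the elastic protein that links Z-disc to M-band (chromosome 2, 76703980 to 76982547), was at 180, 177 and 259 RPM in PBS and 61.6, 323 and 66.2 RPM in DT. Its highest library was DT mouse 2, at 157% of the PBS mean. Tcap, the cap of titin at the Z-disc, hardly varied among PBS mice, at 32.4, 32.3 and 32.2 RPM. In DT mice it was at 16.2, 31.8 and 15.3 RPM, so its groups did not overlap, although DT mouse 2 lay just below the PBS mice. Xirp1, an actin-binding protein of the intercalated disc, was at 20.2%, 131% and 34.1% of its PBS mean in DT mice 1 to 3. Myom2, an M-band cross-linker, stood at 28.4%, 131% and 38.5%, and its relative Myom1 at 54.9%, 114% and 62.7%.

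The Z-disc genes Ldb3 (35.3%, 115% and 47.1%) and Csrp3 (46.1%, 105% and 43.5%) lay between these. Nebl, nebulette, was at 166, 191 and 188 RPM in PBS and 196, 190 and 191 RPM in DT and did not follow the split. Its locus spans 17343909 to 17731464 on chromosome 2 and RefSeq lists starts of several transcripts there. The table has 1 value for the gene, so transcripts could not be told apart.

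Calcium-handling genes had the lowest levels of any role in DT mice 1 and 3 by the median member, at 28.9% and 35.4% of the PBS mean. Casq2, the calsequestrin of heart muscle (ENSMUSG00000027861, chromosome 3, 102086415 to 102146514), stood at 30.7, 29.0 and 35.6 RPM in PBS and 6.38, 34.8 and 10.4 RPM in DT. Trdn, triadin, which anchors calsequestrin to the release channel, was at 8.04, 7.25 and 8.91 RPM in PBS and 2.15, 8.60 and 2.01 RPM in DT. The release channel itself, Ryr2, was at 67.7, 79.9 and 107 RPM in PBS and 26.0, 126 and 34.4 RPM in DT. For all 3 genes DT mice 1 and 3 were the lowest libraries and DT mouse 2 lay near or above the top of the PBS mice.

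Both small inhibitors of the calcium pump behaved likewise. Pln, phospholamban, was at 37.2, 40.7 and 45.4 RPM in PBS and 11.4, 49.7 and 13.6 RPM in DT. Antisense genes of the annotation cover much of its exons, Gm47644 alone 59.6%. Sln, sarcolipin, which is of atrial type in mouse heart, was at 11.8, 11.2 and 12.5 RPM in PBS and 4.18, 12.8 and 4.90 RPM in DT. Hrc, a calcium-binding protein of the reticulum lumen, stood at 27.9%, 117% and 25.6% of its PBS mean, and Srl, sarcalumenin, at 29.9%, 111% and 37.6%. Jph2, which ties the reticulum to the surface membrane, was at 97.2, 91.6 and 95.6 RPM in PBS and 83.0, 92.8 and 92.0 RPM in DT. It differed little between libraries, with the highest at 1.17 times the lowest.

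Among energy genes, Ckm, the cytosolic creatine kinase of muscle, was at 26.0, 23.0 and 28.2 RPM in PBS and 7.28, 26.3 and 8.54 RPM in DT. The mitochondrial creatine kinase Ckmt2 was at 27.4%, 109% and 35.9% of its PBS mean in DT mice 1 to 3. The log2 ratio of Ckm to Ckmt2 per kilobase stayed between -0.48 and -0.33 in all 6 libraries. Cox7a1, a muscle subunit of cytochrome oxidase, stood at 40.8%, 98.9% and 53.7%. The oxygen carrier Mb (62.7%, 102% and 70.7%) and the fatty acid carrier Fabp3 (78.2%, 100% and 77.5%) differed less. Antisense genes overlap exons of several of these genes. The largest such overlap was 27.6% of the exonic bases for Mb (Gm49540) and 15.5% for Ckm (A930016O22Rik). It was 9.84% for Fabp3 (Zcchc17) and 5.65% for Ckmt2 (1700119I11Rik).

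Nppa, the atrial natriuretic peptide gene, varied most (ENSMUSG00000041616, chromosome 4, 148000722 to 148002079). It stood at 3.00, 8.63 and 14.4 RPM in PBS and at 0.537, 10.9 and 0.0544 RPM in DT. These were 54, 162 and 274 reads in PBS and 9, 206 and 1 reads in DT. The value in DT mouse 3 is a single read. PBS mouse 1 was also low, at 34.6% of the PBS mean, which no other tested member showed. An antisense gene, Gm13054, overlaps 61.5% of the exonic bases of Nppa and stood between 0.477 and 0.797 RPM in all 6 libraries. The related peptide gene Nppb, which lies beside Nppa and is known as a stress-induced gene of ventricle and atrium, was at 5.05, 3.78 and 4.40 RPM in PBS and 3.10, 3.93 and 3.64 RPM in DT.

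Tbx20, a transcription factor of the heart that maintains cardiomyocytes, was at 19.7, 20.8 and 25.3 RPM in PBS and 4.18, 29.0 and 7.34 RPM in DT. Smyd1, a muscle methyltransferase needed for sarcomere assembly, stood at 29.9%, 109% and 44.7% of its PBS mean. Eef1a2, the translation elongation factor of muscle and neurons, was at 30.6%, 105% and 35.3%, and Fndc5, the precursor of irisin, at 36.7%, 105% and 39.9%. Hspb7, a small heat shock protein of muscle, was at 63.7%, 103% and 67.1%. All 7 genes of this last group had DT mice 1 and 3 as their lowest libraries.

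By their sums per length, atrial members outweighed ventricular ones in every library. The summed level of Myl4, Myl7, Sln and Nppa was 32.2, 36.4 and 43.7 RPM per kilobase in PBS mice and 17.1, 41.4 and 17.1 in DT mice. For Myl2, Myl3 and Myh7 it was 9.64, 9.72 and 12.3 in PBS and 7.69, 10.3 and 5.57 in DT. The log2 ratio of the first sum to the second was 1.82 ± 0.08 in PBS and 1.59 ± 0.43 in DT (SD, n = 3). The essential light chains alone did not show this in every library. Their log2 ratio, Myl4 to Myl3 per kilobase, was 0.31, 0.24 and -0.16 in PBS and 0.93, 0.02 and 1.31 in DT. Per kilobase, Myl3 was thus the higher of the pair in PBS mouse 3, while in RPM Myl4 was higher there, at 22.8 against 11.3. The lengths used were all exonic bases of any annotated transcript, 4637 for Myl4 and 2044 for Myl3. Which transcripts were present was not tested, so the order of the pair depends on these lengths. Myl2, the ventricular regulatory light chain, had 1, 3 and 4 reads in PBS and 0, 6 and 2 reads in DT. No read in DT mouse 1 allows up to 0.179 RPM (3 reads, counting error only). Myl2 did not pass the filter on low values, so a difference in it was not tested.

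**Figure D2:**
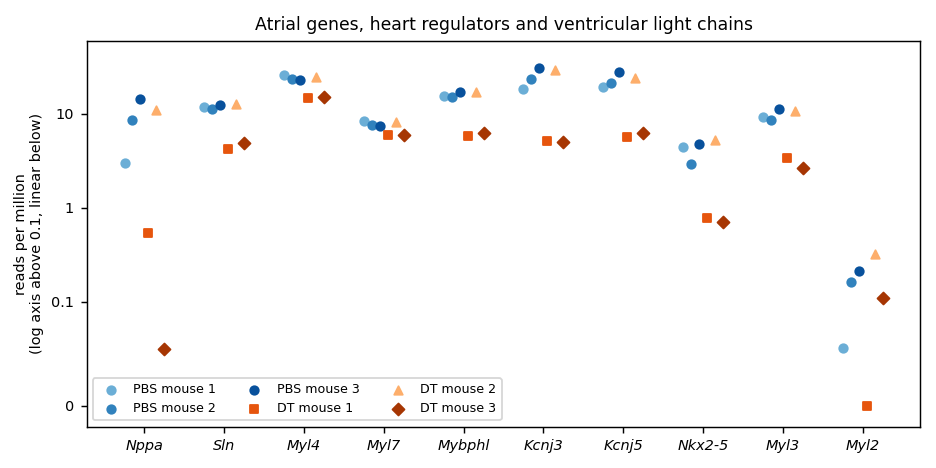
RPM of the atrial members, other heart genes and the light chains Myl3 and Myl2 in each mouse, on a log axis above 0.1 and a linear one below. For every gene shown except Myl2, DT mice 1 and 3 are the 2 lowest of the 6 mice. The genes shown were chosen with their values known, so nothing is read from how many show this. Myh7, a ventricular member without this pattern (51.9 RPM in DT mouse 1), is not shown. Levels of different genes are not comparable here, as they are not per length.

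Members with more reads per exonic base differed less. The Spearman correlation across the 38 tested members between the mean reads per exonic base and the ratio of highest to lowest library was -0.53, a description over genes that share libraries and depth. In the 19 members of lower density (0.0122 to 0.134 reads per base) the median level was 35.0% of the PBS mean in DT mouse 1 and 41.4% in DT mouse 3. In the 19 of higher density (0.136 to 0.52) it was 50.2% and 47.3%. Tcap had the highest density and still stood at 50.2% and 47.3%. Over all tested genes with a length the median density was 0.137, and 99% lay under 0.583. Whether values at high density follow abundance was not tested.

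**Figure D3:**
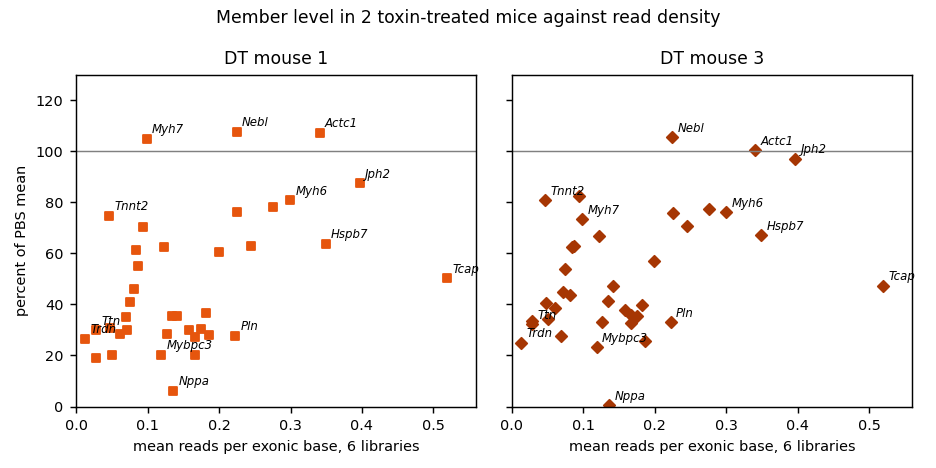
Level of each tested member in DT mouse 1 (left) and DT mouse 3 (right), as a percentage of the PBS mean, against its mean reads per exonic base over the 6 libraries. Points are genes; those under 40% lie below 0.25 reads per base, and Jph2, Actc1 and Nebl stand near 100%.

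The comparison of DT with PBS asks what toxin treatment changed in the hypoxic lung. None of the 38 tested members passed it (limma, Benjamini-Hochberg over all genes, smallest adjusted p = 0.454), beside 0.281% of all genes. Log2 fold changes on the log2(RPM + 1) scale were negative for 36 of the 38 members, with a median of -0.77 against 0.00 over all genes. They ran from -1.64 ± 0.87 (standard error) for Nppa to 0.09 ± 0.06 for Nebl. The value of Nppa moved with the processing, from -3.17 by limma-voom and -2.83 at a pseudocount of 0.1 RPM to -0.75 at a pseudocount of 5 RPM, and from -2.72 to -0.97 with 1 mouse left out. Mybpc3 had a log2 fold change of -1.33 ± 0.52, Casq2 of -1.17 ± 0.48, Pln of -1.003 ± 0.46 and Ttn of -0.88 ± 0.56. At an unadjusted p under 0.05 there were 17 of the 38 members and 9.03% of all genes. Limma-voom on the recovered reads also called 0 members. DT lay below PBS without overlap for 2 members, Tcap and Myh6, against 6.79% of all genes. Nothing is read from these counts, since the members were chosen with the values known.

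DT mouse 2 decides these counts. Without it, 26 of the 38 members were past the threshold as lower in DT, beside 0.544% of all genes tested in that fit, and the median log2 fold change was -1.23. This mouse is singled out because the members were high in it, and the members were chosen with the values known. The calls follow from those choices, and nothing is read from them. As a description, Pln then stood at -1.64 ± 0.11, Mybpc3 at -2.04 ± 0.18 and Casq2 at -1.83 ± 0.19. The 12 not past the threshold included Nppa as well as Actc1, Nebl, Jph2, Myh7 and Nppb. Leaving out any other single mouse gave 0 members past the threshold and a median between -0.81 and -0.46.

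**Figure D4:**
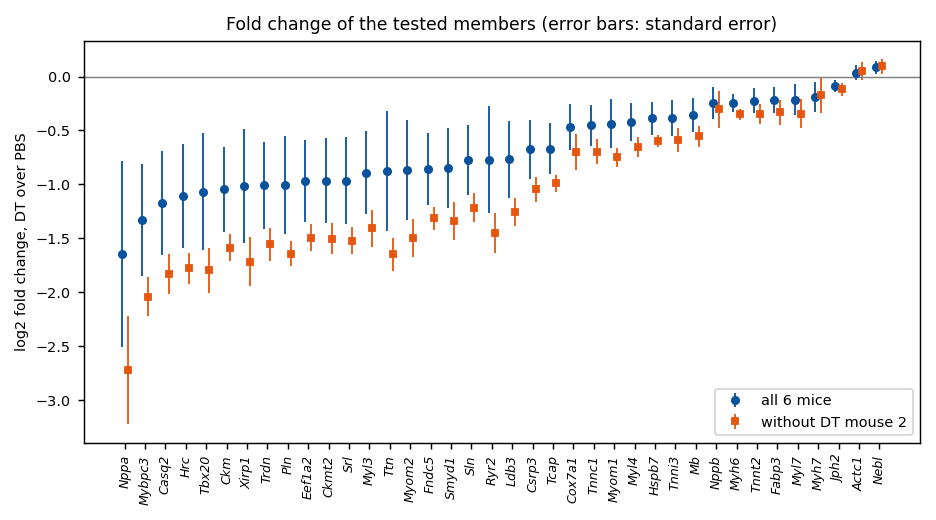
Log2 fold change of DT over PBS with its standard error for the 38 tested members, from all 6 mice (circles) and without DT mouse 2 (squares). Without that mouse the values move down for most genes and the error bars shrink for 33 of the 38, the others being Jph2, Nebl, Actc1, Myh7 and Nppb; Jph2, Actc1 and Nebl stay near 0 in both.

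Heart genes outside the 39 were taken from lists of 60 genes, 57 of them tested. None passed (limma, smallest adjusted p = 0.163; 13 at an unadjusted p under 0.05, beside 9.03% of all genes). That smallest adjusted p was of Kcnj2, which was higher in DT. It stood at 54.1, 49.0 and 51.5 RPM in PBS and 70.4, 59.3 and 68.2 RPM in DT. Of the 57, 40 had a negative log2 fold change and 17 a positive one, and the median was -0.30. That median was -0.49 without DT mouse 2, -0.18 without DT mouse 1, -0.19 without DT mouse 3 and -0.19 at a pseudocount of 5 RPM. DT mice 1 and 3 were the lowest libraries for 29 of the 57, beside 6.95% of all genes tested. Further sarcomere genes showed this in 12 of 18, energy genes in 5 of 6 and atrial genes in 2 of 2. Channel genes showed it in 5 of 10, transcription factor genes in 5 of 12 and calcium genes in 0 of 9. The calcium pump Atp2a2, which many cell types use, was at 130, 126 and 119 RPM in PBS and 140, 122 and 129 RPM in DT. Desmin (Des, log2 fold change 0.02 ± 0.04), which other kinds of muscle also express, lay near 0. So did Cryab (0.04 ± 0.06) and Tpm1 (0.11 ± 0.06), which many other cell types also express.

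Further heart genes of other kinds were low in the same mice; Nkx2-5, Kcnj3, Kcnj5 and Irx4 were picked after their values were seen. Nkx2-5, a core cardiac transcription factor, was at 4.38, 2.93 and 4.72 RPM in PBS and 0.775, 5.31 and 0.707 RPM in DT. Kcnj3 and Kcnj5, the subunits of the acetylcholine-gated potassium channel of atrial muscle, stood at 18.2 to 30.9 and 19.1 to 27.9 RPM in PBS. In DT mice they were at 5.13, 29.0 and 5.06 RPM and at 5.61, 23.9 and 6.20 RPM. Irx4, a factor of ventricle, had 1 read in all, and Bmp10, a ligand of the right atrium, had none in any library. Genes outside the list were also ranked by how near their values over the 6 libraries lay to the median member, so their values chose them. Of the 933 tested genes whose log2 level ranged by at least 1, the 10 nearest were, in order, Mybphl, 2310046A06Rik, Tnni3k, Pgam2, Dusp27, Frmd5, Rnf207, Fitm1, Aldh1b1 and Myoz2. Their root mean square differences ran from 0.063 to 0.109. Mybphl encodes an atrial myosin-binding protein, Tnni3k a cardiac kinase and Pgam2 the muscle phosphoglycerate mutase, while others such as Aldh1b1 are not specific to muscle.

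Skeletal muscle markers summed to 45.2, 50.3 and 55.8 RPM in PBS and 52.3, 54.5 and 42.1 RPM in DT. Mybpc2, the fast skeletal myosin-binding protein, was the most abundant of them and had another order, at 7.10, 13.8 and 16.6 RPM in PBS and 27.6, 19.3 and 17.1 RPM in DT. Without it, an alternative chosen after seeing the data, the other 20 markers summed to 38.1, 36.5 and 39.1 RPM in PBS and 24.8, 35.2 and 25.02 RPM in DT. DT mice 1 and 3 were then at 65.3% and 66.04% of the PBS mean and DT mouse 2 at 92.9%. Of the 14 tested, 10 had a negative log2 fold change and 3 had DT mice 1 and 3 lowest, beside 6.95% of all genes tested. The test passed 0 of the 14 (limma, smallest adjusted p = 0.373; 3 at an unadjusted p under 0.05). Myl1, a fast skeletal and embryonic light chain, was one of the 3 with DT mice 1 and 3 lowest, at 6.99, 5.28 and 6.24 RPM in PBS and 1.55, 4.99 and 1.47 RPM in DT. Casq1, the skeletal calsequestrin, was another, at 4.72, 4.64 and 4.61 RPM in PBS and 3.28, 4.62 and 2.50 RPM in DT. Other skeletal genes were present at several RPM, such as Tnnt1 and Myh1 with PBS means of 3.74 and 3.75 RPM, while Myod1 and Myh4 had at most 0.107 RPM in any library. These last 4 were picked after their values were seen. The part of skeletal muscle in the heart muscle values was not tested.

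Smooth muscle markers summed to 732 to 770 RPM in PBS and 739 to 776 RPM in DT, with 0 of 10 past the test (limma, smallest adjusted p = 0.581), 0 at an unadjusted p under 0.05, and a median log2 fold change of -0.0013. None of the 4 tested thymus markers had DT mice 1 and 3 lowest, and 0 passed the test (limma, smallest adjusted p = 0.202; 1 at an unadjusted p under 0.05). That smallest p was of Rag1, picked after its values were seen, at 0.222, 0.0533 and 0 RPM in PBS and 0.596, 1.12 and 1.47 RPM in DT.

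The sum of the fat markers was also lowest in DT mice 1 and 3. It was 41.2, 90.4 and 68.5 RPM in PBS and 29.2, 83.2 and 37.7 RPM in DT. Of the 7 tested, 5 had DT mice 1 and 3 lowest, beside 6.95% of all genes tested. The test passed 0 of the 7 (limma, smallest adjusted p = 0.675), with 0 at an unadjusted p under 0.05. Only Dio2, picked after its values were seen, had a positive log2 fold change (0.16 ± 0.21, standard error). Adipoq, adiponectin, stood at 4.77, 20.1 and 14.6 RPM in PBS and 1.49, 17.9 and 2.50 RPM in DT. PBS mouse 1 was low for fat, at 61.7% of the PBS mean, but not for the heart muscle sum, at 93.3%. The brown fat gene Ucp1, picked after its values were seen, had at most 0.266 RPM. The part of such tissue in the heart muscle values was not tested.

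**Figure D5:**
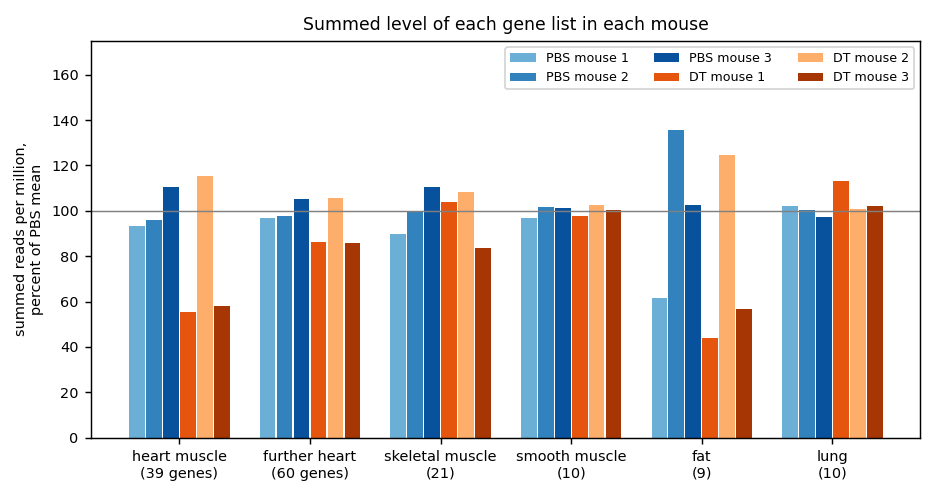
Summed RPM of each gene list in each mouse, as a percentage of the mean of the 3 PBS mice. DT mice 1 and 3 stand at 55.6% and 58.1% for the heart muscle genes and at 43.8% and 56.6% for fat markers, while smooth muscle stays between 96.8% and 103% in all mice.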

How the data were processed

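Whole-lung RNA of 6 mice, 3 per group, was made into libraries with an mRNA-Seq kit, per the labels' protocols. The submitters' processing notes name FastQC, Trimmomatic and mm10 but no versions. Aligner, counter and strand use were not given in the sources used here. As log2 of RPM, 1 value per gene and library was what the authors deposited. On the linear scale they were whole multiples of 1 read within 0.1%, and the lowest value, 0.9 of a read, was set to 0. Between 69.82% and 73.13% of each total lay in listed genes. Exonic lengths came from GENCODE M21 (25035 of 25965 identifiers found) and count every base in an exon of any transcript of the gene.

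DT was compared with PBS by limma 3.58.1 in R 4.3.3, allowing a trend of variance with level, on log2(RPM + 1). This scale understates changes of low genes. The 16708 genes with at least 0.538 RPM (10 reads at median depth) in 3 libraries were tested, 2-sided, with Benjamini-Hochberg adjustment and a threshold of 0.05. The fit was tested on simulated data. Whether mice shared litters or cages is not recorded, and the main fit took the mice as independent. Its p-values weigh the group difference against the spread of mice within groups, which limma draws towards a trend over all genes. Members, lists and tests were chosen with earlier results of these data known. Outside the members, the naming rule took genes past the threshold, the 3 highest per kilobase of each list and up to 10 nearest in pattern; exceptions are stated. Alternatives covered scaling, filter, pseudocount, limma-voom, a replicate block and leaving out each mouse. Figures were drawn with matplotlib 3.10.9. Some results are not reported here.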

Additional observations from a re-analysis of the deposited data

How the results depend on the processing

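With all 6 mice, 0 members and 0 of the further heart genes passed under every scaling, filter, pseudocount, limma-voom or replicate block fit. Leaving out 1 mouse gave 0 to 26 members, 0 to 17 further heart genes, a median member log2 fold change from -1.23 to -0.46, a further heart gene median from -0.49 to -0.18, a summed member level (log2, DT over PBS) from -0.82 to -0.21 and an atrial to ventricular balance from -0.44 to -0.01. The 26, all lower in DT, and the 17, of which 16 were lower, came without DT mouse 2, where 0.544% of all genes were called lower. Over all genes, 46 were higher and 1 lower; leaving out 1 mouse gave 0 to 56 higher and 0 to 90 lower, with 0 and 0 without DT mouse 1 and 13 and 0 without DT mouse 3. The replicate block gave 8 higher and 0 lower, median-of-ratios scaling 0 lower and upper-quartile scaling 2 lower; the cause was not tested. Replicate numbers were not taken to pair the mice in the main fit. Deviations of same-numbered mice correlated at 0.08, 0.27 and -0.10, and those of mice with different numbers between -0.26 and 0.14. With 3 mice per group these values cannot decide whether the numbers pair the mice. Of 228 member fold changes with 1 mouse left out and 303 under other alternatives, 1 had another sign, Actc1 without PBS mouse 3 (-0.01). Myl7 against Myl2 alone gave no value, as Myl2 had no read in DT mouse 1. The summed skeletal marker level (log2, DT over PBS) moved from -0.02 to -0.42 without Mybpc2, an alternative chosen after seeing the data. Depth limits Myl2 and, in DT mice 1 and 3, Nppa.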
